A study of Homo sapiens with 6 samples.

Results

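RNA was sequenced from HT-1080 cells, a human fibrosarcoma line, after 48 h with 500 nM pimasertib or with the vehicle DMSO, 2 libraries in each group. These 4 of the series' 6 libraries were compared across all genes, from the deposited read counts. The other 2 libraries came from the same line after 48 h with palbociclib at 2 µM, a drug against the G1 kinases CDK4 and CDK6, and they entered the fit and a direct test of the difference between the drugs. All groups shared the parental line, so each value describes 1 transformed cell line at 1 dose and 1 time of each drug. No label ties the libraries of a group to separate cultures, and the p-values therefore measure only how far libraries spread, which may be technical.

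Pimasertib inhibits MEK1 and MEK2, the kinases that phosphorylate and activate ERK in the cascade RAS, RAF, MEK and ERK. Active ERK raises transcription factors of the ETS and AP-1 families and cyclin D1, and it also raises its own inhibitors, the dual-specificity phosphatases and the Sprouty and SPRED proteins, so their RNA is a readout of the cascade. HT-1080 cells carry an activating mutation of NRAS, upstream of that cascade. Bulk RNA cannot tell fewer cells of a type apart from less RNA per cell.

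Totals ranged from 13607490 to 17500655 counts per library over all 6 libraries, and 98.3% to 98.7% of them fell in protein-coding genes. Mitochondrially encoded genes took 3.21% and 5.67% of counts in DMSO replicates 1 and 2 and 4.25% and 8.76% in the pimasertib replicates, more in replicate 2 of each group. Of the 12 mesenchymal markers 11 were tested, 4 of them higher and 2 lower, of which 1 and 1 held when each library was left out in turn, as without pimasertib replicate 1. Their summed level was 5104 and 7195 CPM (counts scaled to a common library total) in DMSO and 11870 and 15380 in pimasertib. Most of this rise was in a single member, SPARC, described below, and the 2 lower markers were CD44 and ZEB1. A further 2 defining markers, NT5E and S100A4, lay under 1 CPM in these 4 libraries. The 12 leukocyte markers summed to at most 3.42 CPM, and EPCAM and CDH1 to at most 0.194 CPM each, in the libraries of both groups. Of the epithelial markers KRT8 and KRT18 were well above these levels, KRT8 higher (lost without pimasertib replicate 1) and KRT18 lower (lost without pimasertib replicate 2). Of 14 tested genes of RNA stress and the dissociation response 1 was higher and 4 lower, of which none held when each library was left out in turn, with 0 lower without pimasertib replicate 2 and 2 without pimasertib replicate 1 or DMSO replicate 1. The replicate block gave 2 higher and 6 lower of the 14. The list's summed levels were 8066 and 5769 CPM in DMSO and 3962 and 3068 in pimasertib, mostly from HSPA8 and HSP90AA1. The part of these shifts in the results was not tested. The endothelial list held 1 gene well above the floor, TIE1, at 130 and 219 CPM in DMSO and 134 and 187 in pimasertib.

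Many of the expressed genes differed between the groups. Of 14839 genes tested with edgeR's quasi-likelihood test, 3376 passed a Benjamini-Hochberg adjusted p of 0.05, 22.8% of those tested. Of these 1644 were higher after pimasertib, 11.1% of those tested, and 1732 were lower, 11.7%. The counts given below for groups of genes stand beside these shares of all tested genes. In all 3376 the pimasertib libraries lay on 1 side of the DMSO libraries, as they did in 4691 of all tested genes above DMSO and 4836 below it. Large changes were mostly upward. At least 4-fold changes numbered 556 upward and 217 downward, and at least 10-fold changes 237 upward and 66 downward, while the median over all tested genes was 0.00 on the log2 scale. Among genes of low level rises outnumbered falls, and among those of high level falls outnumbered rises. With the genes cut into 4 equal groups by mean level, the lowest group held 323 higher and 89 lower genes, and the highest 339 higher and 661 lower. Libraries with the same replicate number deviated together, and with that number as a block 3056 genes were higher and 3495 lower, 3374 of the 3376 among them in the same direction. Leaving out pimasertib replicate 2 left 562 higher and 493 lower, and leaving out pimasertib replicate 1 left 775 and 801. Without DMSO replicate 1, 855 were higher and 990 lower. In all, 888 genes passed in each of the 6 fits that leave out 1 library. A gene named below passed against DMSO in all 6 of these fits unless an adjusted p without a library is given with it, or it is said how many of the 6 it passed.

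**Figure D1:**
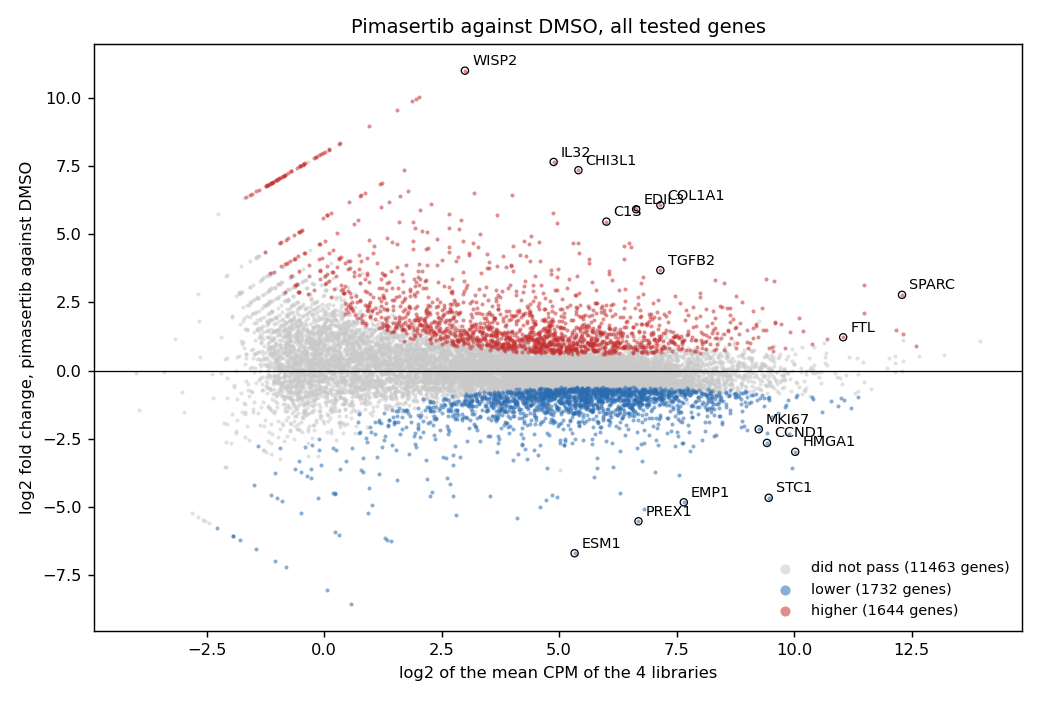
Each of the 14839 tested genes is a point, with the log2 of its mean CPM over the 4 libraries on the horizontal axis and its log2 fold change, pimasertib over DMSO, on the vertical axis. Red points are the 1644 genes that passed as higher and blue points the 1732 that passed as lower, grey points did not pass, and the largest rises lie at low mean level.

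Among genes with at least 100 normalized counts on average, the 12 largest falls ran from 24.7-fold to 105-fold. ESM1 (ENSG00000164283, GRCh37 chr5:54273692-54318499, minus strand), a secreted proteoglycan, stood at 70.2 and 89.2 CPM in DMSO and at 0.806 and 0.711 in pimasertib. The groups were far apart, a 105-fold lower mean level, with a log2 fold change of -6.70 (SE 0.32, n = 2 and 2, edgeR adjusted p = 7.69e-06). PREX1 (GRCh37 chr20:47240790-47444420, minus strand), an exchange factor that activates the GTPase RAC, fell from 242 and 162 CPM to 4.49 and 4.26 (log2 -5.52, SE 0.30, edgeR adjusted p = 7.69e-06). IL8, the neutrophil chemokine also called CXCL8 (GRCh37 chr4:74606223-74609433, plus strand), fell from 39.0 and 54.5 CPM to 1.27 and 1.68 (log2 -4.99, SE 0.33, edgeR adjusted p = 1.64e-05). STC1, the secreted hormone stanniocalcin, was among the most abundant of these, at 1172 and 1538 CPM in DMSO and 49.7 and 57.2 in pimasertib (log2 -4.66, SE 0.29). EMP1, a membrane protein of the same family as EMP2, fell from 324 and 454 CPM to 11.9 and 15.5 (log2 -4.83, SE 0.30). The interstitial collagenase MMP1 fell from 20.4 and 47.1 CPM to 0.576 and 1.03 (log2 -5.39, SE 0.49). The other genes among the 12 largest falls were DUSP4, ETV4 and SPRY4, described below, ACOX2 (log2 -5.31), an oxidase of the peroxisome, COL17A1 (-4.61), a collagen of hemidesmosomes, and HSD11B1 (-4.61), which regenerates active glucocorticoid.

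The 12 largest rises were in genes with at most 6.69 CPM in DMSO. WISP2 (GRCh37 chr20:43343485-43357150, plus strand), a secreted protein of the CCN family, had 0 counts in both DMSO libraries and 12.7 and 19.2 CPM in pimasertib, at least 164-fold higher when DMSO is set at 3 counts summed over its libraries. IL32, a proinflammatory cytokine (GRCh37 chr16:3115298-3131908, plus strand), stood at 0.485 and 0.0675 CPM in DMSO and 59.3 and 58.3 in pimasertib (log2 7.64, SE 0.44, edgeR adjusted p = 8.77e-06). EDIL3, an integrin-binding matrix protein, rose from 1.58 and 5.0 CPM to 213 and 180 (log2 5.91, SE 0.58, edgeR adjusted p = 0.000125). The complement proteases C1R and C1S, which cleave in sequence at the start of the classical pathway, rose together. C1R went from 0.182 and 0.54 CPM to 26 and 37.2 (log2 6.45, SE 0.48), and C1S from 1.64 and 4.12 to 105 and 147 (log2 5.46, SE 0.42). PDGFB, a growth factor for mesenchymal cells, rose from 0 and 0.405 CPM to 16.5 and 19.7 (log2 6.49, SE 0.93, edgeR adjusted p = 0.00105). The matrix protein MATN2 (log2 5.79), OLFML2A (5.50) and LRRN4CL (5.72) completed the calls that held in every fit. Of the 12 largest rises 3 did not. CHI3L1, a secreted chitinase-like protein, went from 0.364 and 0.675 CPM to 70.2 and 98.9 (log2 7.34), with an edgeR adjusted p of 0.108 without DMSO replicate 1 and 0.0668 without DMSO replicate 2. PIK3IP1, an inhibitor of PI3-kinase (log2 5.68), gave 0.219 and 0.122 in the same fits. COL1A1, a chain of type I collagen, rose from 1.82 and 6.69 CPM to 281 and 281 (log2 6.06, SE 0.92). Its edgeR adjusted p was 0.366 and 0.204 without DMSO replicate 1 or 2, and 0.0587 and 0.0574 without pimasertib replicate 1 or 2.

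**Figure D2:**
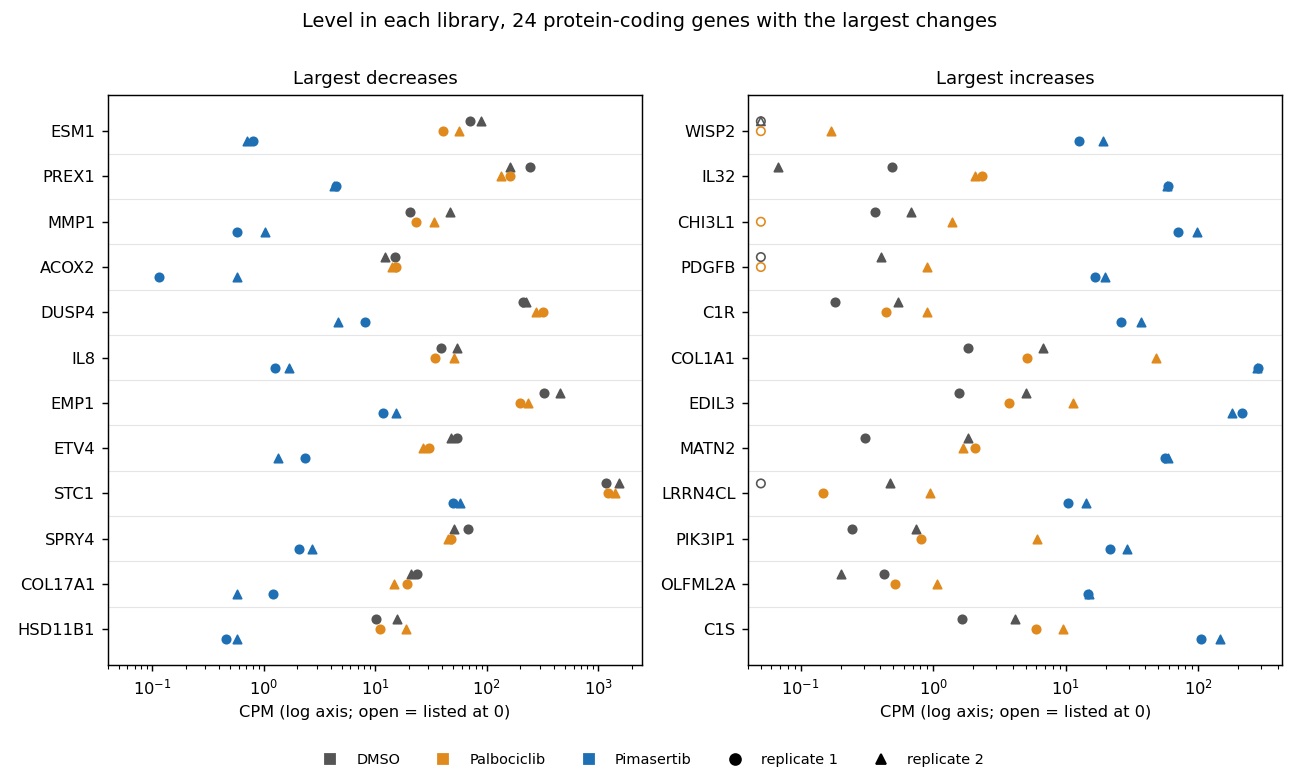
CPM on a log axis in each of the 6 libraries for the 12 protein-coding genes with the largest falls and the 12 with the largest rises after pimasertib, coloured by group, with circles for replicate 1, triangles for replicate 2 and open symbols for a gene listed at 0. In every row both pimasertib libraries (blue) lie beyond both DMSO libraries (grey), which the rule that chose these genes required. ESM1, for example, lies at 0.806 and 0.711 against 70.2 and 89.2 CPM.

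Promoter sequence was read for the tested genes from RefSeq windows of 300 bases on GRCh38.p14, with 250 bases before the start and 50 after it, available for 10771 of the 14839 genes. Letters were matched on both strands. The windows printed here belong to genes that fell or rose, with the motif searched in capitals, and a match is a description and not a site of binding. IL8, 1 of the largest falls, is shown for its AP-1 letters, TGACTCA or TGAGTCA, whose share among lower genes was near that of all windows. E2F1 and MCM7 stand for replication genes with the E2F letters TTTCCCGC or TTTGGCGC, and CDC20 and MKI67 for mitotic genes with the cell cycle homology region (CHR), TTTGAA. IFI27 and ISG15 stand for interferon-stimulated genes with the interferon response element (ISRE), searched as GAAA, 2 free bases and GAAA, a motif added after the counts for that group had been seen. Some matches shown are the reverse complement of the letters.
IL8, chr4:73740319-73740618, plus strand, AP-1 in capitals: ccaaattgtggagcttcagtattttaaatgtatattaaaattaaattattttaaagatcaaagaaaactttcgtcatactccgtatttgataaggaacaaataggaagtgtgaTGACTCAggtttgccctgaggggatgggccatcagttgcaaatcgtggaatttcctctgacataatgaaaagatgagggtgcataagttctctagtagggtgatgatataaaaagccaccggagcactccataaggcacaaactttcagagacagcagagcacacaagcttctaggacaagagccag
E2F1, chr20:33686336-33686635, minus strand, E2F in capitals: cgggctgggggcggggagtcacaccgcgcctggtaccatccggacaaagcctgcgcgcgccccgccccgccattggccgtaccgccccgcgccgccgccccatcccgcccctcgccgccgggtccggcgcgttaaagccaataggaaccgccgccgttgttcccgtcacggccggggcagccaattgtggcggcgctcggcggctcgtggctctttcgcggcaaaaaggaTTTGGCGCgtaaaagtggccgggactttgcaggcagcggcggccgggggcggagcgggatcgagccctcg
MCM7, chr7:100101348-100101647, minus strand, E2F in capitals: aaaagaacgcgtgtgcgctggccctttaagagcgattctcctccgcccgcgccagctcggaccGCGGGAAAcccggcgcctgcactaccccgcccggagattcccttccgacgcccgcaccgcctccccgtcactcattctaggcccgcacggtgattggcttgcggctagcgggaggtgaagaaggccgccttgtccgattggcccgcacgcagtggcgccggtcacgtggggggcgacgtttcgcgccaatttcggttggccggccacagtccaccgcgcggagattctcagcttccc
CDC20, chr1:43358731-43359030, plus strand, CHR in capitals: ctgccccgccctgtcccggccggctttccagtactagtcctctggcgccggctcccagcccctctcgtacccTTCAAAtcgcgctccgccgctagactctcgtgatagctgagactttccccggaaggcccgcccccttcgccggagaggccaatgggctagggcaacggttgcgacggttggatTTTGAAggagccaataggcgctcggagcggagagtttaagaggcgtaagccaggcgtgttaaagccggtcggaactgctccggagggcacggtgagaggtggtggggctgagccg
MKI67, chr10:128126374-128126673, minus strand, CHR in capitals: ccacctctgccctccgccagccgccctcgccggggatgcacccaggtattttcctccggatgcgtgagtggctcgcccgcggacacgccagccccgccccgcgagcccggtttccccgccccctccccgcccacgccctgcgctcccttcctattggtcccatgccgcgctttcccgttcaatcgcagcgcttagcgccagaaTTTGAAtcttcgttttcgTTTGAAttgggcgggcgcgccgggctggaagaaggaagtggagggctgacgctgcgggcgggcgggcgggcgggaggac
IFI27, chr14:94110486-94110785, plus strand, ISRE in capitals: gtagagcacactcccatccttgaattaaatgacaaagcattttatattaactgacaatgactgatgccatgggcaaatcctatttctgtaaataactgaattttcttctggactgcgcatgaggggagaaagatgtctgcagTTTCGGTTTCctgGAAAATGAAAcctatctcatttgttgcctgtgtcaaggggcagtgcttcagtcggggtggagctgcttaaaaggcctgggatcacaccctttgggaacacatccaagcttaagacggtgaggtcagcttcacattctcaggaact
ISG15, chr1:1013247-1013546, plus strand, ISRE in capitals: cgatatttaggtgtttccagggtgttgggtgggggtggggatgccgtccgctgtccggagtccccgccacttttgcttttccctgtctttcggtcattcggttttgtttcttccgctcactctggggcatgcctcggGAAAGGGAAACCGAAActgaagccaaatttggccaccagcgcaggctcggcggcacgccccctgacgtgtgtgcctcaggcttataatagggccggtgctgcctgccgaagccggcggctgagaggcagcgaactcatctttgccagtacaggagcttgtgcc

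The CHR letters were in 14.6% of the windows of genes lower after pimasertib, 8.53% of those of higher genes and 9.75% of all tested windows. E2F letters were in 6.44% of the windows of lower genes, 1.37% of higher and 3.70% of all. For the ETS letters CCGGAAG the shares were 16.6% of lower, 10.9% of higher and 18.8% of all, and for AP-1 3.29%, 5.07% and 3.45%. ISRE letters were in 2.63% of lower, 4.67% of higher and 2.90% of all. The E-box CACGTG was in 11.8%, 8.53% and 10.2%, and the cyclic AMP element TGACGTCA in 3.95%, 3.14% and 3.28%. CHR and ISRE matches shared bases in 3 windows, E2F and ISRE in 3, AP-1 and E-box in 7 and E-box and cyclic AMP element in 4. The consensus serum response element was in 6 windows in all, 1 of a higher gene and 0 of lower genes.

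The kinases of the cascade itself are regulated mainly by phosphorylation. Of 19 genes of RAS, RAF, MEK, ERK and their direct regulators, 1 was higher and 2 lower, against 22.8% of all tested genes that passed. None of these held in all 6 fits, and with the replicate block 1 was higher and 6 lower. MAP2K1, which encodes MEK1, fell from 105 and 86.2 CPM to 46.1 and 38.4 (log2 -1.18, SE 0.22, edgeR adjusted p = 0.00404, and 0.0628 without pimasertib replicate 2). HRAS fell by 1.02 on the log2 scale (edgeR adjusted p = 0.00786, and 0.0846 without pimasertib replicate 2). MAPK3, which encodes ERK1, rose from 19.0 and 23.3 CPM to 41.1 and 39.8 (log2 0.94, edgeR adjusted p = 0.0164). That call was lost without DMSO replicate 1 (0.0966), pimasertib replicate 1 (0.0838) or pimasertib replicate 2 (0.0872). NRAS, the mutated gene, did not pass, at 137 and 116 CPM in DMSO and 168 and 104 in pimasertib, and the groups overlapped. MAP2K2 (log2 0.10) and BRAF (-0.27) did not pass either.

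Most feedback inhibitors of ERK fell. Of 15 tested Sprouty, SPRED and related inhibitors 11 were lower and 1 higher, with a median log2 fold change of -1.65, and 10 of the falls held in all 6 fits, while with the replicate block 11 were lower and 3 higher. SPRY2, which blocks RAS activation, fell from 49.0 and 49.4 CPM to 4.09 and 4.26 (log2 -3.56, SE 0.22, edgeR adjusted p = 1.04e-05). ERRFI1, which inhibits the EGF receptor, fell from 324 and 349 CPM to 56.6 and 49.3 (log2 -2.67, SE 0.23, edgeR adjusted p = 7.47e-05). PHLDA2 fell from 156 and 122 CPM to 16.6 and 19.2 (log2 -2.96). The dual-specificity phosphatases, which remove phosphate from MAP kinases, split in direction. Of 9 tested 3 were lower and 2 higher, and 2 of each held in all 6 fits. The ERK phosphatases DUSP4 (log2 -5.07, 210 and 223 CPM to 8.17 and 4.65) and DUSP5 (log2 -3.22, 111 and 90.2 CPM to 11.7 and 9.88) fell. DUSP7 fell by 1.09 on the log2 scale and passed in 3 of the 6 fits. DUSP10 and DUSP8, which act mainly on the stress kinases JNK and p38, rose by 1.68 and 1.92 on the log2 scale. DUSP10 went from 21.5 and 21.1 CPM to 78.5 and 58.2. DUSP6, the classic ERK phosphatase, was not tested, since it had 0 and 7 counts in DMSO and 0 in both pimasertib libraries.

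Transcription factors downstream of ERK also split. Of 30 tested 12 were lower and 5 higher, with a median of -0.43, of which 9 and 2 held in all 6 fits. The PEA3 group of ETS factors fell together. ETV4 went from 53.7 and 48.1 CPM to 2.36 and 1.36 (log2 -4.76, SE 0.29), ETV5 from 103 and 98.4 to 6.85 and 6.72 (log2 -3.89, SE 0.26), and ETV1 fell by 2.88 on the log2 scale. Of the chromatin proteins HMGA1 and HMGA2, HMGA2 fell by 2.96 on the log2 scale. HMGA1 went from 1878 and 1818 CPM to 244 and 224 (log2 -2.98, SE 0.26, edgeR adjusted p = 7.49e-05), and by length-scaled level (FPKM) it dropped from rank 18 to rank 383 of 16377 nuclear protein-coding genes. Members of AP-1 moved in opposite directions. FOSL1 fell from 407 and 275 CPM to 57.0 and 51.5 (log2 -2.65, SE 0.26), while JUNB rose from 14.0 and 19.2 CPM to 60.3 and 58.7 (log2 1.84, SE 0.23), and JUND rose by 1.39. JUN fell by 0.76 on the log2 scale and passed in 3 of the 6 fits. ATF3 rose by 1.98, with an edgeR adjusted p of 0.005, and of 0.0503 without pimasertib replicate 2. MYC did not pass, at 21.4 and 19.4 CPM in DMSO and 16.7 and 19.8 in pimasertib (log2 -0.16, edgeR adjusted p = 0.643), and the groups overlapped. EGR1, an immediate early gene, stayed at or under 1.15 CPM in all 4 libraries and did not pass.

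Proliferation genes fell almost without exception. Of 50 tested genes of DNA replication and the G1/S transition 47 were lower and none was higher, with a median log2 fold change of -1.54, and 28 of the falls held in all 6 fits. Of 60 genes of G2/M and mitosis 57 were lower and none was higher, with a median of -1.27, and 19 held. Without pimasertib replicate 2 the counts were 28 and 19 as well. E2F1, the factor that drives replication genes, fell from 78.2 and 54.6 CPM to 11.2 and 9.95 (log2 -2.65, SE 0.25, edgeR adjusted p = 9.88e-05). RRM2, a subunit of ribonucleotide reductase, fell from 374 and 245 CPM to 66.3 and 52.3 (log2 -2.38, SE 0.29), and CDC25A, a phosphatase that activates CDK2, fell by 2.59. MCM7, a subunit of the replicative helicase, fell from 484 and 388 CPM to 128 and 106 (log2 -1.90). MKI67, the proliferation antigen Ki-67, fell from 1171 and 815 CPM to 224 and 222 (log2 -2.15, SE 0.27, edgeR adjusted p = 0.000538). FOXM1, which drives mitotic genes, fell by 1.97 on the log2 scale, and SPC24 of the kinetochore fell by 1.84. CDC20, an activator of the ligase that ends mitosis, fell from 266 and 218 CPM to 76.2 and 68.0 (log2 -1.75). In their promoters the E2F letters were in 21 of 42 windows of the replication list, 50% against 3.70% of all tested windows, and the CHR letters in 36 of 52 windows of the mitotic list, 69.2% against 9.75%.

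The G1 regulators themselves changed in part. CCND1, cyclin D1, fell from 1467 and 900 CPM to 215 and 162 (log2 -2.65). The list of D cyclins, CDKs and RB family members also held CDC25A, which was counted with the mitotic genes too. Of the list's 13 tested genes 7, CDC25A among them, were lower and none higher. Of these 3 held in all 6 fits, and with the replicate block 9 were lower and 1 higher. CDK2 fell by 1.24 on the log2 scale (edgeR adjusted p = 0.00369, and 0.0558 without pimasertib replicate 2), and RBL1, the RB relative p107, fell by 1.32. CDK4 (log2 -0.53), CDK6 (-0.02) and RB1 (-0.43) did not pass. The replicate block brought CDK4 (edgeR adjusted p = 0.0022) and RB1 (0.0387) past the threshold, but not CDK6 (0.816). CCNE2 fell by 1.73 (edgeR adjusted p = 0.00597, and 0.0664 without pimasertib replicate 2), while CCNE1 (log2 -0.57, edgeR adjusted p = 0.153) did not pass. Among CDK inhibitors CDKN1B, the protein p27, rose from 25.4 and 24.7 CPM to 47.8 and 43.2 (log2 0.86, edgeR adjusted p = 0.0191). Its call was lost without DMSO replicate 1 (0.0613), pimasertib replicate 1 (0.107) or pimasertib replicate 2 (0.0792). CDKN2D fell by 2.14. CDKN1A, the protein p21, stood at 316 and 311 CPM in DMSO and 478 and 426 in pimasertib and did not pass (log2 0.53, edgeR adjusted p = 0.109).

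The DMSO libraries are shared by both drugs, so the drugs were set against each other by a test of pimasertib minus palbociclib. That test called 753 genes higher in pimasertib, 5.07% of those tested, and 640 lower, 4.31%. Leaving out pimasertib replicate 1 left 307 and 259, leaving out pimasertib replicate 2 left 230 and 226, leaving out palbociclib replicate 1 left 475 and 572, and with the replicate block it called 2382 and 2321. Differences between the drugs for single genes, here and below, come from the fit of all 6 libraries alone, without such checks. For the 50 replication genes the test called none higher and 1 lower, namely E2F1 (log2 -0.92, edgeR adjusted p = 0.0392). Of the 60 mitotic genes 9 were higher in pimasertib than in palbociclib and none was lower. CCNA2, cyclin A2, which passed against DMSO in 4 of the 6 fits, was at 156 and 134 CPM in DMSO, 90.1 and 63.2 in pimasertib and 31.1 and 23.4 in palbociclib (log2 between the drugs 1.5, edgeR adjusted p = 0.0039). MKI67 did not differ past the threshold (log2 0.41, edgeR adjusted p = 0.365). By contrast all 11 feedback inhibitors that fell against DMSO were lower in pimasertib than in palbociclib. CCND1 was at 2469 and 1562 CPM in palbociclib, so that the drugs differed by -3.42 on the log2 scale (edgeR adjusted p = 0.000253). IL1B stood at 321 and 313 CPM after palbociclib, above its DMSO level of 130 and 170 CPM, and at 6.27 and 7.17 CPM after pimasertib (log2 between the drugs -5.56, edgeR adjusted p = 1.2e-05). Of the 1644 genes higher than DMSO 614 were also higher against palbociclib and none was lower. Of the 1732 lower than DMSO 516 were also lower and 20 were higher, and the rest did not pass. Both comparisons use the same pimasertib libraries, so part of this shared direction is built in.

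**Figure D3:**
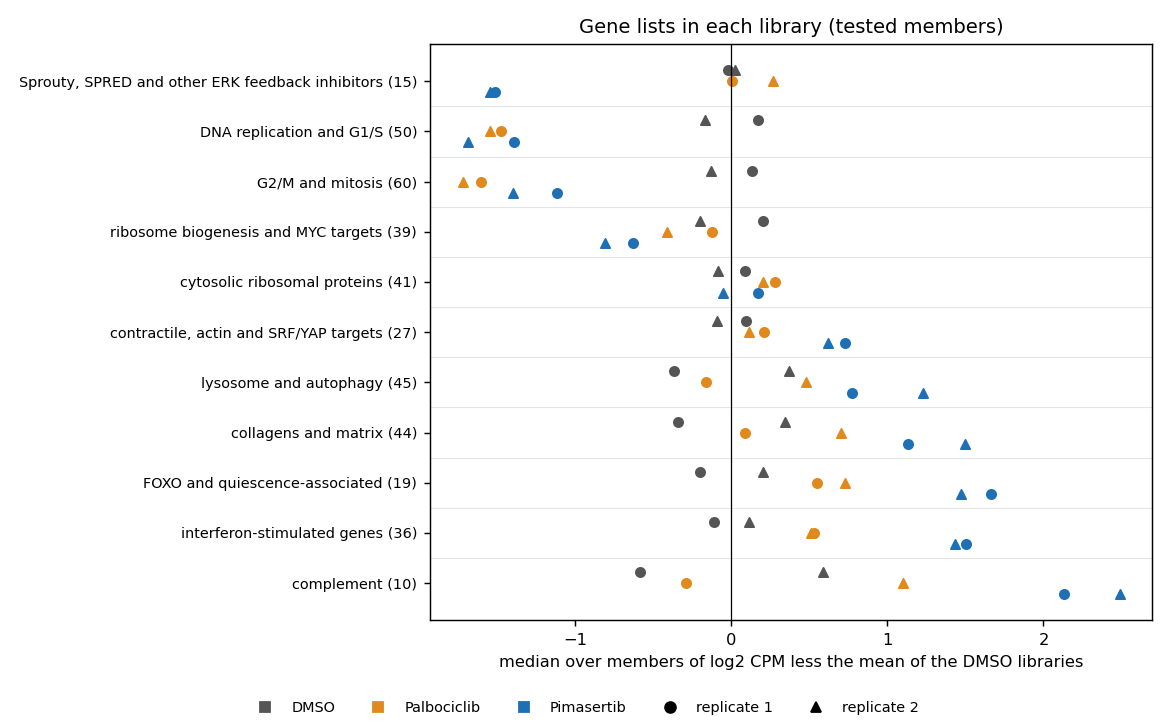
For 11 gene groups, the median over tested members of log2 CPM less the mean of the DMSO libraries is plotted on the horizontal axis for each library, with colours for groups and symbols for replicates. The feedback inhibitors lie at -1.52 and -1.55 in the pimasertib libraries and at 0.00 and 0.27 in palbociclib, while the replication genes lie at -1.40 and -1.69 in pimasertib and at -1.48 and -1.55 in palbociclib.

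Genes of the BCL2 family, which set the threshold of the mitochondrial pathway of apoptosis, changed on both sides. Of 16 tested 3 were higher and 5 lower, of which 1 and 1 held in all 6 fits, and with the replicate block 6 and 5. All 3 higher genes encode BH3-only proteins, which promote apoptosis. BCL2L11, the protein BIM, rose from 6.86 and 9.46 CPM to 44.8 and 51.2 (log2 2.56, SE 0.26, edgeR adjusted p = 0.000167). In palbociclib it stood at 6.37 and 8.73 CPM, and the drugs differed by 2.66 on the log2 scale (edgeR adjusted p = 0.000189). BMF rose from 0.91 and 5.61 CPM to 82.1 and 80.4 (log2 4.66, SE 0.69, edgeR adjusted p = 0.00125, and 0.0782 without DMSO replicate 1). BBC3, the protein PUMA, rose by 0.94 and passed in 3 of the 6 fits. Of the lower genes 4 encode survival proteins. BCL2L1 fell from 224 and 140 CPM to 42.9 and 37.8 (log2 -2.17, SE 0.27, edgeR adjusted p = 0.000502). MCL1 fell from 701 and 604 CPM to 304 and 251 (log2 -1.24, SE 0.24, edgeR adjusted p = 0.00535, and 0.0812 without pimasertib replicate 2). BCL2A1 fell by 3.73 from a low level (edgeR adjusted p = 0.00384, and 0.0512 without pimasertib replicate 2), and BCL2 fell by 1.17 and passed in 3 of the 6 fits. The effector BAX fell by 0.68 (edgeR adjusted p = 0.0386), a call lost in all 6 fits. Of 29 p53 targets 6 were higher and 2 lower, with a median of -0.04, beside 22.8% of all tested genes that passed. Of these 3 and 1 held in all 6 fits, and with the replicate block 8 were higher and 8 lower.

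Growth factor and receptor genes moved both ways. Of 20 tested ligands 6 were higher and 5 lower, of which 4 and 1 held in all 6 fits, and with the replicate block 9 and 9. Of 23 receptor tyrosine kinases 8 were higher and 4 lower, of which 3 and 2 held. The ligands of the EGF receptor TGFA and HBEGF fell. TGFA went from 58.9 and 88.3 CPM to 16.2 and 22.3 (log2 -1.93, SE 0.27), and HBEGF fell by 1.70 (edgeR adjusted p = 0.00447, and 0.0587 without pimasertib replicate 1). EGFR, their receptor, fell from 267 and 308 CPM to 72.3 and 94.6 (log2 -1.78, SE 0.23, edgeR adjusted p = 0.00059). EPHA2, an ephrin receptor, fell from 614 and 1063 CPM to 152 and 221 (log2 -2.17, SE 0.34). AXL and MET fell by 1.07 and 0.85 on the log2 scale and passed in 3 of the 6 fits each. On the other side PDGFB rose, as given above, and so did its receptor PDGFRB, from 2.25 and 6.01 CPM to 49.6 and 55.9 (log2 3.68, SE 0.39, edgeR adjusted p = 0.000197). TGFB2 rose from 14.1 and 27.2 CPM to 270 and 258 (log2 3.68, SE 0.32), and TGFB3 from 2.91 and 9.39 to 90.6 and 95.6 (log2 3.93, SE 0.53). TGFBR2, the type II receptor for TGF-beta, fell from 382 and 563 CPM to 139 and 166 (log2 -1.63). The orphan receptor ROR1 rose by 2.29 and the stem cell factor receptor KIT by 2.45 on the log2 scale. FGFR3 rose by 1.92 (edgeR adjusted p = 0.00615, and 0.0614 without pimasertib replicate 1). ERBB3, which signals with ERBB2, lay at or under 1.29 CPM and did not pass (log2 0.74, edgeR adjusted p = 0.551).

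**Figure D4:**
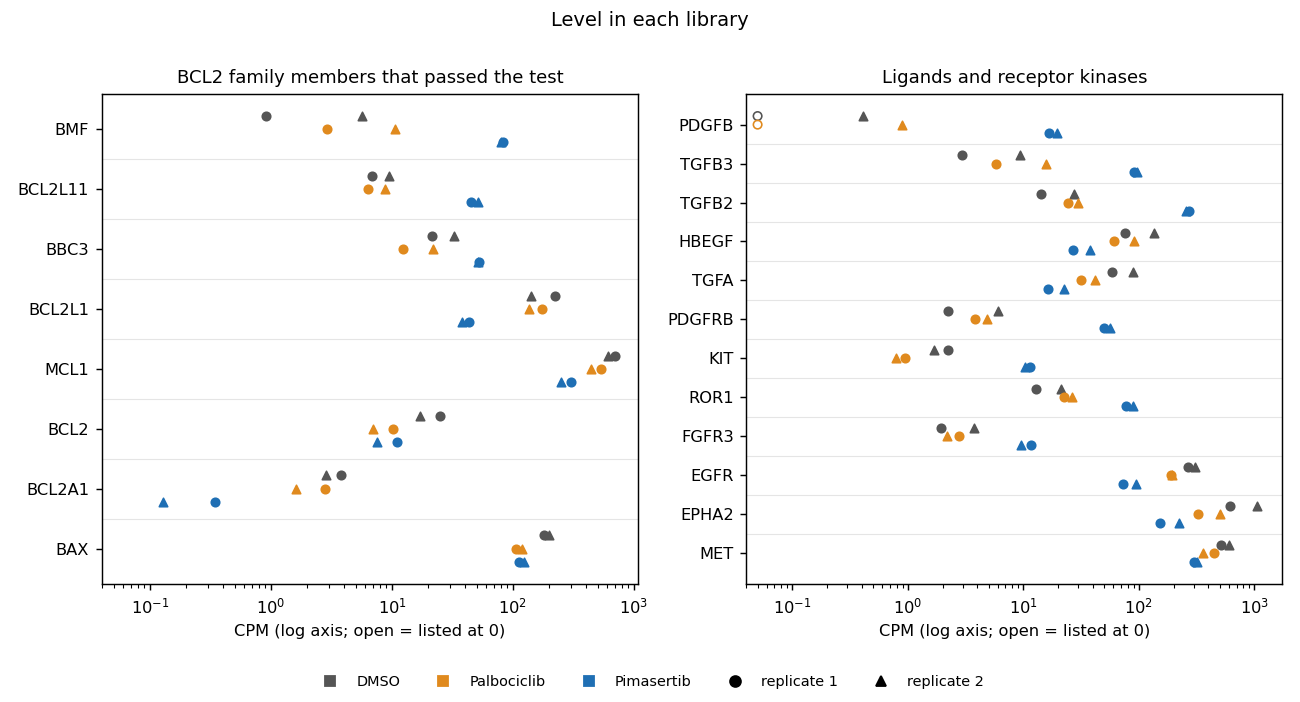
CPM on a log axis in each of the 6 libraries for the 8 BCL2 family members that passed and for 12 ligands and receptors that passed, coloured by group, with circles for replicate 1 and triangles for replicate 2. BCL2L11, BMF, PDGFB and PDGFRB lie higher in both pimasertib libraries (blue) than in all others, as for BCL2L11 at 44.8 and 51.2 CPM against 6.86 and 9.46 in DMSO (grey).

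Inflammatory mediators were in part raised and in part lowered. Of 20 tested 10 were higher and 2 lower, of which 5 and 2 held in all 6 fits. The 2 that fell were the chemokine IL8 and the cytokine IL1B, the latter with a log2 fold change of -4.48 (SE 0.26, edgeR adjusted p = 8.77e-06). Among those that rose TRAF1, an adaptor of TNF receptors, went from 0.85 and 1.89 CPM to 42.0 and 31.5 (log2 4.75, SE 0.43, edgeR adjusted p = 7.88e-05). CCL5 had 0 counts in both DMSO libraries and 0.633 and 1.16 CPM in pimasertib, at least 9.20-fold higher (edgeR adjusted p = 0.0391, passed in 2 of the 6 fits, DESeq2 adjusted p = 0.0206). Of 36 interferon-stimulated genes, which cells turn on in antiviral defence, 24 were higher and none lower, with a median log2 fold change of 1.43, and 17 held in all 6 fits. The replicate block gave 28 higher and 1 lower of the 36. IFI27 rose from 0.243 and 0.54 CPM to 16.1 and 12.3 (log2 5.17, SE 0.56, edgeR adjusted p = 0.00023), and IFIT1 from 1.76 and 2.16 to 32.4 and 22.1 (log2 3.79, SE 0.34). ISG15, a ubiquitin-like protein, rose from 7.1 and 7.36 CPM to 34.7 and 26.2 (log2 2.07), and MX2 rose by 4.87. Of the list's promoter windows 18 of 27 held the ISRE letters, 66.7% against 2.90% of all tested windows, as in IFI27 and ISG15 above. Against palbociclib 15 of the 36 were higher in pimasertib and 1 was lower. Of 24 antigen presentation genes 10 were higher and none lower, with a median of 0.78. Of these 1 held in all 6 fits, and with the replicate block 17 were higher and 1 lower. HLA-B went from 0.607 and 4.26 CPM to 22.6 and 37.6 (log2 3.65, edgeR adjusted p = 0.00824). B2M, the light chain of these molecules, went from 80.2 and 233 CPM to 530 and 741 (log2 2.02, edgeR adjusted p = 0.0225). In each group replicate 2 was the higher for both genes, and both calls passed in 3 of the 6 fits. Of 10 complement genes 5 were higher and none lower, with a median of 2.47. Of these 3 held in all 6 fits, and with the replicate block 6 were higher and 2 lower. CFI, a protease that inactivates complement, had 0 counts in both DMSO libraries and 4.20 and 7.5 CPM in pimasertib, at least 60.0-fold higher.

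In the extracellular matrix and the contractile cytoskeleton more genes passed as higher than as lower. Of 44 matrix genes 22 were higher and 2 lower, with a median log2 fold change of 1.25, and 10 higher ones held in all 6 fits, the count left without pimasertib replicate 2. With the replicate block 29 were higher and 4 lower. SPARC, a collagen-binding matricellular protein, rose from 859 and 1708 CPM to 7191 and 10370 (log2 2.77, SE 0.41, edgeR adjusted p = 0.00116), which made it rank 3 by FPKM among nuclear protein-coding genes of the pimasertib libraries. HSPG2, the basement membrane proteoglycan perlecan, rose from 60.3 and 82.1 CPM to 600 and 705 (log2 3.20, SE 0.30). COL13A1, a transmembrane collagen, fell from 165 and 313 CPM to 31.8 and 40.6 (log2 -2.72, SE 0.37). Of 27 contractile genes and targets of the factors SRF and YAP 13 were higher and 1 lower, with a median of 0.62, and 8 of the higher ones held in all 6 fits. MYL9, a myosin light chain, rose from 6.49 and 7.23 CPM to 185 and 136 (log2 4.55, SE 0.25, edgeR adjusted p = 7.69e-06). TAGLN, an actin-binding protein, rose from 2.12 and 3.85 CPM to 91.3 and 59.3 (log2 4.66, SE 0.41). TPM1, a tropomyosin, rose from 140 and 144 CPM to 1341 and 1416 (log2 3.28, SE 0.24). CNN1, calponin, rose from 0 and 0.0675 CPM to 6.16 and 3.10 (log2 6.86). Of these 27 genes 13 were higher in pimasertib than in palbociclib and none was lower. The muscle markers DES and MYH11 stayed at or under 1.81 CPM in the 4 libraries.

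Adhesion receptors and proteases moved both ways. Of 16 integrins 4 were higher and 2 lower, of which 1 and 1 held in all 6 fits, and with the replicate block 9 and 3. ITGA6, a laminin receptor chain, fell from 1631 and 2046 CPM to 144 and 168 (log2 -3.56, SE 0.27, edgeR adjusted p = 3.86e-05). ITGAV, a chain of vitronectin receptors, rose from 93.6 and 174 CPM to 662 and 651 (log2 2.29, SE 0.35). The hyaluronan receptor CD44 fell from 1346 and 1832 CPM to 416 and 461 (log2 -1.86, SE 0.26). Of 21 proteases and inhibitors of the plasminogen and metalloproteinase systems 7 were higher and 6 lower, of which 2 and 2 held. PLAUR, the receptor of the urokinase plasminogen activator, fell by 1.87 (edgeR adjusted p = 0.00513, and 0.0647 without pimasertib replicate 1). PLAU, that activator, fell by 1.68 and passed in 3 of the 6 fits, and the tissue-type activator PLAT fell by 1.98 and passed in 4. MMP2, a gelatinase, rose from 38.5 and 96.5 CPM to 362 and 521 (log2 2.71, edgeR adjusted p = 0.00458). Its call was lost without DMSO replicate 1 (0.0883) or pimasertib replicate 2 (0.0549). MMP24, a membrane metalloproteinase, rose by 4.62.

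Of 45 lysosome and autophagy genes 20 were higher and 1 lower, with a median log2 fold change of 0.94, and with the replicate block 31 and 2. Of the higher ones 3 held in all 6 fits, and replicate 2 was the higher library of each group. The list's median, relative to the DMSO mean, was -0.37 and 0.37 in DMSO and 0.77 and 1.23 in pimasertib. The protease CTSD went from 31.2 and 83.4 CPM to 188 and 297 (log2 2.08, edgeR adjusted p = 0.0178). Without DMSO replicate 1 it was 0.33, without DMSO replicate 2 0.0764 and without pimasertib replicate 2 0.151. Of the list's promoter windows 9 of 32 held the E-box, 28.1% against 10.2% of all tested windows. FOXO factors are active when growth signalling is low. Of 19 genes associated with FOXO factors or with quiescence, the resting state of cells, 13 were higher and 1 lower, with a median of 1.56. Of the higher ones 9 held in all 6 fits, and with the replicate block 13 were higher and 2 lower. TXNIP, an inhibitor of thioredoxin, rose from 2.61 and 4.86 CPM to 40.8 and 41.4 (log2 3.46, SE 0.39). In the network of MYC's partner MAX, MXD4, a repressor, rose from 37.8 and 48.7 CPM to 174 and 169 (log2 1.99, SE 0.22). It was at 164 and 174 CPM in palbociclib, and the test between the drugs gave 0.02 on the log2 scale (edgeR adjusted p = 0.961).

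Many genes for making ribosomes fell modestly. Of 39 ribosome biogenesis genes and MYC targets 20 were lower and none higher, with a median log2 fold change of -0.69, and 38 of 39 had a negative sign. With the replicate block 35 were lower, and without pimasertib replicate 2 none was. ODC1, the first enzyme of polyamine synthesis, fell from 686 and 439 CPM to 161 and 131 (log2 -1.94, edgeR adjusted p = 0.00258, and 0.0565 without pimasertib replicate 2). The E-box was in 14 of 32 windows of this list, 43.8%. Of 41 cytosolic ribosomal proteins none passed, with a median of 0.05, and with the replicate block 8 were higher and 1 lower. Of 37 genes of the amino acid response driven by ATF4 10 were lower and 2 higher, of which 2 and 1 held in all 6 fits, and with the replicate block 20 and 6. SLC7A5, a transporter of large neutral amino acids, fell from 482 and 574 CPM to 91.9 and 108 (log2 -2.40, SE 0.24, edgeR adjusted p = 0.000127). SLC2A1, the glucose transporter GLUT1, rose from 262 and 416 CPM to 812 and 1084 (log2 1.48, edgeR adjusted p = 0.00619, and 0.0747 without pimasertib replicate 2). In palbociclib it stood at 169 and 226 CPM, and the drugs differed by 2.26 on the log2 scale (edgeR adjusted p = 0.00112). The counts of the next groups stand beside the 22.8% of all tested genes that passed. Of 28 glycolysis and hypoxia genes 3 were higher and 5 lower, none of which held in all 6 fits, and with the replicate block 4 and 11. Of 36 nuclear genes of the respiratory chain 5 were higher, 1 of which held, and with the replicate block 8 were higher and 9 lower. Of 24 genes of cholesterol synthesis and uptake 2 were higher and 2 lower, none of which held, and with the replicate block 9 and 2. None of 13 mitochondrially encoded genes passed, and with the replicate block 3 were higher and 1 lower.

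Ferroptosis is a form of cell death by lipid peroxidation, which the selenoenzyme GPX4 prevents. Of 28 protective genes 3 were higher and 3 lower, with a median of 0.06, against 22.8% of all tested genes that passed. Of these 1 and 1 held in all 6 fits, the counts left without pimasertib replicate 1, and with the replicate block 8 were higher and 4 lower. Of 22 promoting genes 2 were higher and 1 lower, with a median of -0.06. Of these 1 higher and no lower gene held in all 6 fits, with 0 lower without DMSO replicate 1 or either pimasertib replicate, and with the replicate block 4 were higher and 4 lower. GPX4 rose from 33 and 53.7 CPM to 170 and 164 (log2 1.95, SE 0.27, edgeR adjusted p = 0.000848). FTL, the ferritin light chain that stores iron, rose from 1229 and 1308 CPM to 3179 and 2731 (log2 1.22, SE 0.25, edgeR adjusted p = 0.00683, and 0.0599 without pimasertib replicate 1). By FPKM it went from rank 7 in DMSO to rank 1 in pimasertib. MBOAT1, a lysophospholipid acyltransferase, fell from 18.4 and 21.8 CPM to 6.79 and 7.88 (log2 -1.46, edgeR adjusted p = 0.00507, and 0.0539 without pimasertib replicate 1). EMP2, a membrane protein, fell from 55.2 and 62.8 CPM to 16.8 and 19.2 (log2 -1.71, SE 0.21, edgeR adjusted p = 0.000412). Both were lower still in palbociclib, at 2.27 and 3.41 CPM for MBOAT1 and 8.86 and 8.22 for EMP2. The test between the drugs gave 1.35 (edgeR adjusted p = 0.0179) and 1.08 (edgeR adjusted p = 0.0101) on the log2 scale. MBOAT2 (log2 0.15), ACSL4 (-0.61), AIFM2 (-0.39), TFRC (-0.44) and SLC7A11 (0.37) did not pass. Of these, ACSL4 (edgeR adjusted p = 0.00118) and TFRC (0.0151) did pass with the replicate block, and MBOAT2 (0.41) did not. SLC7A11, the cystine importer, did differ between the drugs (log2 0.99, edgeR adjusted p = 0.0153), at 151 and 126 CPM in pimasertib and 75.5 and 63.8 in palbociclib. Of 26 targets of the antioxidant factor NRF2 7 were higher and none lower. Of these 4 held in all 6 fits, and with the replicate block 10 were higher and 2 lower. HMOX1, which degrades heme, rose from 22.3 and 18.4 CPM to 109 and 106 (log2 2.40, SE 0.21, edgeR adjusted p = 7.08e-05).

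**Figure D5:**
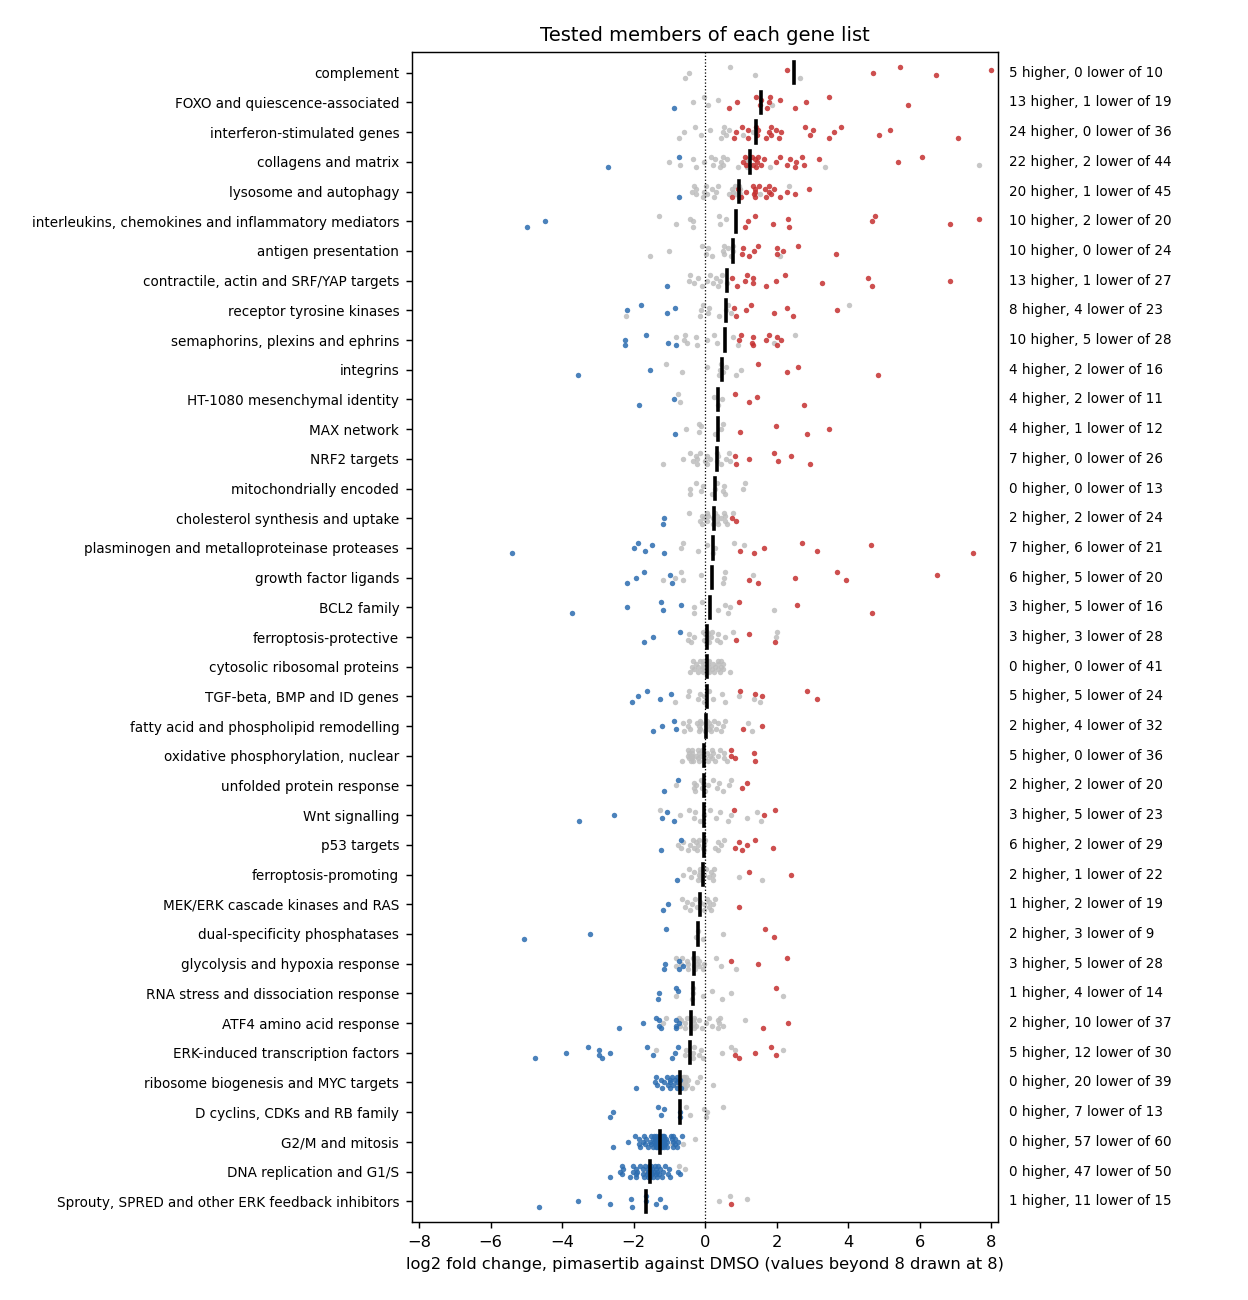
Log2 fold changes, pimasertib over DMSO, of the tested members of 39 gene groups, one row each, with a black bar at each group's median and a dotted line at the median of all tested genes. Counts of higher and lower members stand at the right, such as 47 of 50 lower for DNA replication and 24 of 36 higher for interferon-stimulated genes.

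Genes outside the protein-coding class passed less often, 9.81% of 2273 against 25.1% of 12566 protein-coding genes, and they were lower in level as a class. RP1-140K8.5, an intergenic RNA, rose from 1.40 and 1.49 CPM to 63.3 and 58.3 (log2 5.39, SE 0.27, edgeR adjusted p = 7.69e-06). LINC00707 fell from 15.7 and 8.51 CPM to 0.691 and 0.646 (log2 -4.16, SE 0.53, edgeR adjusted p = 0.000537). The strand setting of the counting step was not given in the labels or headers, and RP11-244F12.3 (log2 3.55), STARD4-AS1 (4.71) and RP11-224O19.2 (4.02) thus cannot be told apart from overlapping genes. The KRT8 pseudogene KRT8P14 fell by 3.25 while KRT8 itself rose by 1.18 (edgeR adjusted p = 0.0154). The call of KRT8 was lost without pimasertib replicate 1, where its log2 fold change was 0.760. How reads shared by near-identical copies were assigned between them was not tested.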

How the data were processed

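Raw read counts per gene, deposited by the authors in 1 table per drug with its DMSO libraries, were joined over both tables to 26286 genes in 6 libraries of 13607490 to 17500655 counts. Upstream tools and builds, per the submitters' processing notes, were STAR 2.5, HTSeq 0.6.1, CASAVA and DESeq2 on GRCh37 (hg19), with no order or settings. The authors also deposited FPKM values, used for ranks by level, gene lengths, and their own log2 fold changes, p-values and normalised signal per library, of which the fold changes and p-values were used to count shared calls. The authors' deposited table called 3445 genes, 3085 of them also called here, all in the same direction. Where 1 table lacked a gene, the other listed it without a DMSO read, and 0 was entered.

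The test was edgeR's quasi-likelihood F test (edgeR 4.0.16, R 4.3.3; robust glmQLFit, glmQLFTest, two-sided) in a single model of 3 groups over all 6 libraries, scaled by TMM. It ran on the 14839 genes that filterByExpr kept (minimum count 10, minimum total 15), with p-values adjusted by Benjamini-Hochberg. The SE is the absolute log2 fold change divided by the square root of F, and the script was tested on simulated data. CPM values use TMM-scaled totals, and a count of 3 was worth 0.168 to 0.220 CPM. Bounds from 3 counts cover counting error only, since PCR duplicates may be among the reads. Same-numbered libraries deviated together from their group means, with correlations over genes of 0.351 between DMSO and pimasertib, 0.398 between DMSO and palbociclib and 0.345 between the drugs, so a fit with the replicate number as a block stands beside the counts it moves. The pairing comes from these correlations and not from the labels.

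The named genes are the 12 largest changes in each direction among protein-coding genes past the threshold with at least 100 normalised counts and no overlap between groups, up to 4 members per list and direction, 5 noncoding genes each way and a set of genes of the cascade, the cell cycle and ferroptosis whatever their value. CCNA2, ETV1, HMGA2, MCM7, CDC20, ISG15 and the markers used as checks were chosen outside this rule, after their values were seen. The comparison, the lists and the genes were chosen with earlier results of these data known. DESeq2 1.42.0 and limma 3.58.1 served as alternatives, with other scalings and filters and fits that leave out 1 library.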

Additional observations from a re-analysis of the deposited data

How the results depend on the processing

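The count of genes past the threshold, 3376, moved by over 1.5 times with the replicate block (6551, of which 3056 higher and 3495 lower) and over the fits that leave out 1 library, which gave 1055 to 4084 genes, 562 to 2097 of them higher and 493 to 1987 lower. The 2335 genes changed at least 2-fold came to 1048 to 2900 in those fits. Between the drugs 1393 genes passed, 2256 with no filter on low counts, 4703 with the replicate block and 456 to 1940 when 1 library was left out. DESeq2, limma-voom, other scalings, other filters, a fit of the compared libraries alone and leaving out mitochondrially encoded genes gave counts against DMSO within 1.5 times. With no filter the median of all genes shifted to 0.11 on the log2 scale. No called gene named above reversed. Genes near 0 that had not passed did: CDK6, at -0.02, was 0.00636 with DESeq2 and with RLE size factors, 0.0172 with library totals, 0.0210 with the compared libraries alone, 0.0255 with no filter, 0.0308 with a stricter filter and 0.0363 without mitochondrially encoded genes. Leaving out 1 library gave -0.387 to 0.280 for CDK6, -0.0286 to 0.224 for MAP2K2, -0.285 to 0.424 for NRAS and -0.0231 to 0.338 for MBOAT2. The cause of these shifts was not tested. With 2 libraries a group, leaving 1 out leaves a lone library that is assumed to vary like the other groups. Genes under about 0.2 CPM in a group rest on 3 counts or fewer.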

Other observations

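Receptors and cues of axon guidance moved both ways. Of 28 tested semaphorins, plexins and related genes 10 were higher and 5 lower, with a median log2 fold change of 0.55, of which 5 and 3 held in all 6 fits that leave out 1 library, and with the replicate block 13 and 9. PLXNA2, a semaphorin receptor, fell from 162 and 173 CPM in DMSO to 31.8 and 38.9 in pimasertib (log2 -2.24, SE 0.21, edgeR adjusted p = 9.88e-05), and SEMA7A, a membrane-anchored semaphorin, fell from 328 and 580 to 86.5 and 107 (log2 -2.23, SE 0.36). SEMA5A rose from 8.25 and 7.5 CPM to 33.6 and 34.4 (log2 2.11, SE 0.22, edgeR adjusted p = 0.000203). The coreceptors differed in sign. NRP2 rose from 134 and 225 CPM to 543 and 693 (log2 1.78), while NRP1 fell by 1.04 on the log2 scale (edgeR adjusted p = 0.0175) and passed in 3 of the 6 fits.

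Among 23 Wnt pathway genes 3 were higher and 5 lower, beside 22.8% of all tested genes that passed. Of these 1 and 2 held in all 6 fits, and with the replicate block 6 were higher and 6 lower. The Wnt receptors of the Frizzled family were split between higher and lower. FZD8 fell from 108 and 151 CPM to 9.21 and 13.2 (log2 -3.53, SE 0.30, edgeR adjusted p = 7.08e-05), and FZD1 from 43.5 and 66.6 to 9.15 and 9.76 (log2 -2.54, SE 0.27). FZD2 rose from 42.0 and 64.7 CPM to 177 and 233 (log2 1.94, SE 0.27), and FZD7 rose by 1.63 (edgeR adjusted p = 0.00629, and 0.0768 without pimasertib replicate 2). Of 24 genes of TGF-beta and BMP signalling 5 were higher and 5 lower, of which 3 and 3 held, and with the replicate block 9 and 7. The decoy receptor BAMBI rose from 10.4 and 10.3 CPM to 73.1 and 77.5 (log2 2.86, SE 0.34, edgeR adjusted p = 0.000373). FST, which binds activin, fell from 40.5 and 47.0 CPM to 11.4 and 12.4 (log2 -1.88, SE 0.27). LTBP2, a latent TGF-beta binding protein, fell by 2.03.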
